A study of Mus musculus with 12 samples.

Results

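Bone morphogenetic protein (BMP) signalling was followed through 10 genes in mouse embryonic stem (ES) cells: the ligands Bmp2, Bmp4 and Bmp7, the type I receptor Bmpr1a, the target genes Id1, Id2, Id3 and Id4, and the inhibitors Smad6 and Bambi. All probes carrying these gene names were taken, 17 of the 41174 probes on the array and 10 of 21179 named genes, and a gene is represented by its brightest probe unless another is stated. Undifferentiated ES cells were compared with ES cells exposed to retinoic acid, the vitamin A derivative, for 3 days. Neither strain, line, medium nor dose is given for either group. Whether the 3 biological samples per group were grown apart is not stated, and the p-values then measure only the spread of these samples, which may be technical. Each sample was hybridised to 2 technical arrays, 12 arrays in all, labelled with Cy3 in 1 colour.

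BMP ligands bind a pair of type I and type II receptor kinases, which phosphorylate Smad1, Smad5 and Smad9. These enter the nucleus with Smad4 and switch on target genes, among which the Id genes are the most general. Id proteins carry a helix-loop-helix domain without a DNA-binding region, so they hold E proteins and other bHLH factors away from DNA. In mouse ES cells BMP4 acting through Id proteins is known to help leukaemia inhibitory factor keep cells undifferentiated. Smad6 blocks the pathway inside the cell and is itself a target gene, and Bambi is a receptor-like protein without a kinase.

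Promoter windows of 300 bases ran from 250 bases before to 50 bases after a transcription start. They were taken from the RefSeq table of build GRCm38.p6 for 6 of the 10 members: Bmp4, Bmpr1a, Id2, Id3, Id4 and Smad6. Those of Id2, Id3 and Smad6, which rose, and of Id4, which fell, are printed 5′ to 3′ on the gene's own strand. Capitals mark matches to the searched letters.
Id2 (chr12:25096043-25096342, minus strand): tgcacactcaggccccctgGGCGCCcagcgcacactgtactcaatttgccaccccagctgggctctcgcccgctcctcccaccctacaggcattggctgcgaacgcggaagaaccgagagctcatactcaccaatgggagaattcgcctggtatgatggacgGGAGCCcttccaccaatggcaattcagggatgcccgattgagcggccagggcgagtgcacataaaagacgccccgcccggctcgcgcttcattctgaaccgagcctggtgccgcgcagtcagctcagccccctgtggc
Id3 (chr4:136143572-136143871, plus strand): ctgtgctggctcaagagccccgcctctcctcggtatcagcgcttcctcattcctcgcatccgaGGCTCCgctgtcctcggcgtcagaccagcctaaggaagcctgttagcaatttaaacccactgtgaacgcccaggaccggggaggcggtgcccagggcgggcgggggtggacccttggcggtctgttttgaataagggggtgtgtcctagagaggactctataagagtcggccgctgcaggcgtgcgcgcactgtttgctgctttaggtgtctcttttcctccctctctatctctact
Smad6 (chr9:64022010-64022309, minus strand): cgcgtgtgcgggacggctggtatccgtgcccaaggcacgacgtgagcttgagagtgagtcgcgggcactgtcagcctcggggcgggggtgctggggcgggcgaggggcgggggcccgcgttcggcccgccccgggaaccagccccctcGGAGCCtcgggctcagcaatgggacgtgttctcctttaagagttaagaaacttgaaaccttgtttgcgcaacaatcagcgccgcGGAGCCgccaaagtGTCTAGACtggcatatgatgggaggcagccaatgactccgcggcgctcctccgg
Id4 (chr13:48260866-48261165, plus strand): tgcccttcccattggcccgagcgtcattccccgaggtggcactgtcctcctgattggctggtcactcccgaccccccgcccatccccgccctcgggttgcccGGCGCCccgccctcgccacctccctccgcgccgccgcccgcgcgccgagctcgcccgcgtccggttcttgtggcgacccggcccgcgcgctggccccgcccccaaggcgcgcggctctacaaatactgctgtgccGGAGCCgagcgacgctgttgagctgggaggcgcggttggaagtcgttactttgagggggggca

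The letters searched on both strands were GGCGCC and GGAGCC, GC-rich elements that BMP-activated Smads can bind, CAGACA, which holds a Smad element, and AGGTCA, the half-site of nuclear receptors such as those for retinoic acid. GGAGCC was present in 5 of the 6 member windows, all but that of Bmpr1a, and in 30.8% of the 32851 promoter windows of the table. It lies at bases -88 to -83 from the start in Id2, -187 to -182 in Id3 (as its reverse complement), -13 to -8 in Id4, and -102 to -97 and -18 to -13 in Smad6, and at -32 to -27 in Bmp4 (as its reverse complement), which was not called. GGCGCC, held by 11.9% of all windows, was present in Id2 (-231 to -226) and Bmpr1a (-198 to -193), which rose, and in Id4 (-148 to -143), which fell. CAGACA (21.0% of all windows) and AGGTCA (16.3%) did not occur in the 6 windows. Smad6 also held the palindrome GTCTAGAC at -4 to 4, searched after its sequence was seen and found in 70 windows (0.213%). The 6 windows were rich in G and C, from 60.0% in Id3 to 79.3% in Bmpr1a, against a median of 52.7% over all windows.

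After retinoic acid the target genes Id1, Id2 and Id3 rose 4.24-, 7.50- and 4.62-fold, while Id4 fell 4.62-fold, by log2 differences of 2.08, 2.91, 2.21 and -2.21. The receptor Bmpr1a rose 2.53-fold and the inhibitor Smad6 2.79-fold, whereas Bambi was lower by 0.64 on the log2 scale, at the edge of the threshold. The ligands Bmp2, Bmp4 and Bmp7 were not called on their brightest probes, but a second probe of Bmp7 was higher by 1.74. All values are log2 of the quantile-normalized intensity plus 50, and fold changes are on that scale, which understates changes of dim genes. The call is a limma p below 0.05 once adjusted by Benjamini-Hochberg across the 15326 genes that could be tested. Of the 10 members, 5 were called higher and 2 lower, where 18.7% of all genes tested were called higher and 13.6% lower (32.3% in either direction). The median difference of the 10 members was 0.66 and that of all genes tested 0.0035. In 7 members the 3 values of each group did not overlap, which held for 46.6% of all genes tested. All 10 members were above background on all 12 arrays, so no member entered the test through a single group. Because whole cultures were measured, fewer cells of a type and less RNA per cell cannot be told apart.

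**Figure D1:**
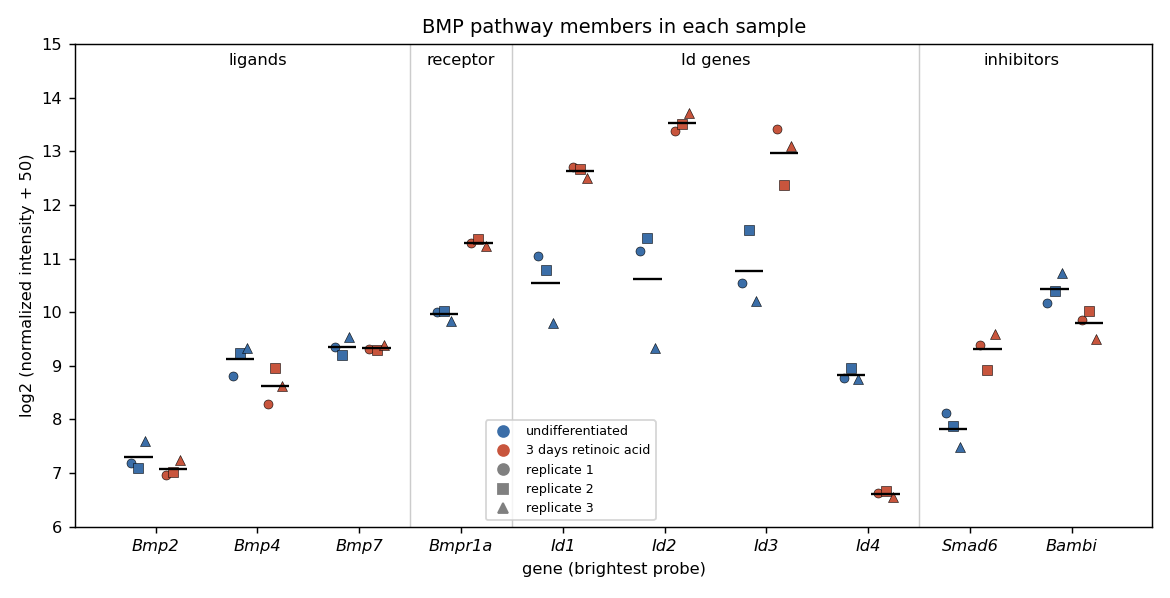
Log2 (normalized intensity + 50) of the brightest probe of each of the 10 members (x axis) in the 3 undifferentiated (blue) and 3 retinoic acid (red) samples. Each point is the mean of 2 technical arrays, its shape gives the replicate number and bars are group means. The groups do not overlap for Bmpr1a, the 4 Id genes, Smad6 and Bambi. Undifferentiated replicate 3 is the lowest of its group for Bmpr1a, Id1 (9.80), Id2 (9.34), Id3, Id4 and Smad6.

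The arrays of replicate 3 stood apart in both groups by median net intensity, at 67.0 to 96.6, against 37.4 to 57.8 on the other 8 arrays. Their background limits were mostly higher, at 33.5 to 51.6 against 8.50 to 34.3, but these ranges overlapped. The 5 pluripotency markers fixed for the label check all fell, their summed normalized intensity running from 59557 to 81610 in undifferentiated samples and from 3606 to 4360 after retinoic acid. Of the 5 retinoic acid markers 3 rose and Rarb and Hoxb1 were not called. Markers of other cell types moved as well: 4 of 7 trophoblast markers rose (sums 1146 to 3017 and 46929 to 55096, with Elf5 at background on all 12 arrays), as did 3 of 6 endoderm markers (658 to 1573 and 4617 to 5418) and 5 of 8 fibroblast markers, with 1 lower (5703 to 14614 and 25464 to 32105). Such sums mostly reflect the brightest genes. After retinoic acid these were Krt18 (15.03) and Krt8 (14.05) among the trophoblast markers, where Gata3 stood at 10.10 and Cdx2 at 7.21. Hand1 (7.31) and Ascl2 (6.63) were not called. Among the fibroblast markers they were Tagln (13.70) and Acta2 (13.69), the latter not called. Of 5 neural markers 1 rose and 1 fell (2525 to 3484 and 3210 to 3499). Their part in the changes of the BMP genes was not tested.

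Id1 was measured by a bright and a slightly dimmer probe. In replicates 1, 2 and 3 the brighter stood at 11.05, 10.78 and 9.80 in undifferentiated cells and at 12.71, 12.67 and 12.50 after retinoic acid. The retinoic acid samples were close together and all above the undifferentiated ones, among which replicate 3 was 1.12 below the mean of the other two. The difference was 2.08 ± 0.31 (SE; limma, adjusted p = 0.00171), from 10.54 ± 0.66 (SD, n = 3) to 12.63 ± 0.12 (SD, n = 3). On the second probe it was 2.02 ± 0.28 (SE; adjusted p = 0.00181 over all probes tested in limma), so both probes of Id1 gave nearly the same value. Without undifferentiated replicate 3 the brighter probe differed by 1.71 (adjusted p = 0.000656 in limma). Taken probe by probe, 25.5% of the 26587 probes tested on the array were called.

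Id2 showed the largest change among the 10 genes on this scale, but not with 1 added in place of 50 (2.96, against -3.04 for Id4) or without replicate 3 of both groups (2.18, against -2.21). Its brightest probe read 11.15, 11.39 and 9.34 in undifferentiated replicates 1, 2 and 3, and 13.38, 13.51 and 13.71 after retinoic acid. Undifferentiated replicate 3 was low again, 1.93 below the mean of the other two, and the groups did not overlap. The difference was 2.91 ± 0.49 (SE; limma, adjusted p = 0.00311), with a 95% interval of 1.78 to 4.04. Without undifferentiated replicate 3 it was 2.27 (adjusted p = 0.00028), so that sample raised the size but not the call. Of its other probes, a bright one differed by 2.49 ± 0.42 (SE) and a dim one, designed on a cDNA clone, by 1.29 ± 0.37 (SE), with adjusted p of 0.00445 and 0.0372 over all probes in limma. All 3 probes of Id2 therefore rose, the dim one least.

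Id3 has a single probe. It gave 10.54, 11.54 and 10.21 in undifferentiated replicates 1, 2 and 3, and 13.42, 12.37 and 13.11 after retinoic acid. Replicate 2 was the highest undifferentiated and the lowest retinoic acid sample, yet the groups did not overlap. The difference was 2.21 ± 0.39 (SE; limma, adjusted p = 0.00383). The technical arrays of undifferentiated replicate 2 read 11.15 and 11.92, the largest technical gap (0.78) among the 60 pairs of the members, whose median gap was 0.086. The second of these arrays carries the name of the other in its file header. Without it the difference was 2.34 (adjusted p = 0.001276). Leaving out undifferentiated replicate 3, the lowest of its group, gave 1.93 (adjusted p = 0.0113 in limma).

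Id4 went the other way. Its brightest probe stood at 8.77, 8.95 and 8.75 in undifferentiated cells and at 6.63, 6.67 and 6.55 after retinoic acid. Both groups were tight, and the gap between them was far wider than either spread. The difference was -2.21 ± 0.14 (SE; limma, adjusted p = 3.78e-05), the smallest adjusted p among the 10 genes, and -1.98 ± 0.17 (SE; adjusted p = 0.000199 over all probes) on the second probe. In normalized intensity the brightest probe had a mean of 405 and 48.2, so the added 50 compressed this change: with 1 in its place the difference was -3.04. Id4 is the Id family member studied most in neural progenitors and stem cells of the testis and mammary gland.

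The ligands differed little on their brightest probes. Bmp4, the ligand best known for ES cell self-renewal and for mesoderm induction, stood at 8.81, 9.25 and 9.33 in undifferentiated replicates and at 8.29, 8.95 and 8.62 after retinoic acid. The retinoic acid values reached lower but the groups overlapped, and the difference of -0.51 (95% interval -1.03 to 0.0099; limma, adjusted p = 0.123) was not called. Bmp2, a close relative of Bmp4, read 7.19, 7.09 and 7.60 against 6.97, 7.02 and 7.25, a difference of -0.21 (95% interval -0.64 to 0.22; adjusted p = 0.432 in limma). Both intervals leave room for a moderate decrease and for little or no change.

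The probes of Bmp7, a ligand of many epithelia and of the kidney, moved apart. On the brightest probe the undifferentiated values were 9.34, 9.20 and 9.54 and the retinoic acid values 9.32, 9.29 and 9.39, a difference of -0.03 (95% interval -0.38 to 0.33; limma, adjusted p = 0.921). On the second probe, of the same transcript record, they were 6.95, 7.23 and 6.81 against 8.71, 8.74 and 8.76. There the groups did not overlap, and the difference was 1.74 ± 0.16 (SE; adjusted p = 0.0003 over all probes in limma). The array tables do not say where on the transcript each probe lies, so these values do not settle whether Bmp7 changed.

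**Figure D2:**
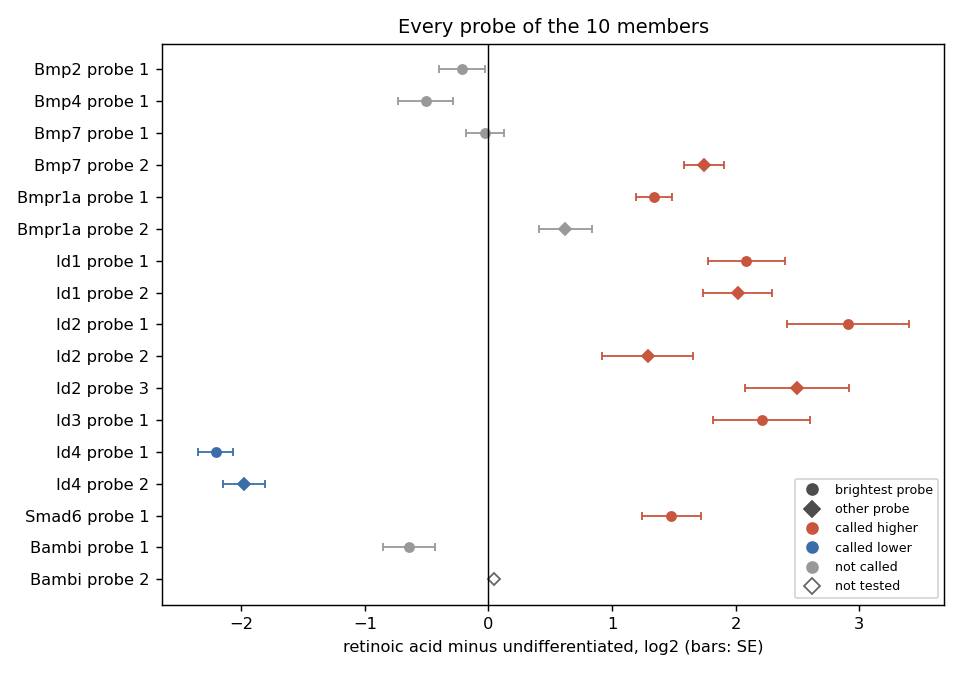
Difference between retinoic acid and undifferentiated cells (log2, x axis, bars are SE) for each of the 17 probes of the 10 members, tested with each probe as its own row. Circles are the brightest probe of a gene and diamonds its other probes, colours give the call over all probes, and the open diamond is the probe of Bambi that was not tested. Probes of Id1, Id2 and Id4 share a direction, the 2 probes of Bmp7 stand at -0.03 and 1.74, and Bambi (adjusted p = 0.0592 over probes) loses the call it has over genes.

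Bmpr1a, the type I receptor that ES cells use for BMP4, stood at 10.002, 10.03 and 9.84 in undifferentiated cells and at 11.28, 11.37 and 11.23 after retinoic acid. Replicates were close in both groups, which did not overlap. The difference was 1.34 ± 0.14 (SE; limma, adjusted p = 0.000369). A second, dimmer probe differed by 0.62 ± 0.22 (SE) without passing the threshold (adjusted p = 0.0733 over all probes in limma), though its groups did not overlap either, at 7.05, 6.42 and 7.08 against 7.48, 7.31 and 7.63.

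Smad6, the inhibitory Smad that acts mainly on BMP receptors, has 1 probe. It read 8.12, 7.88 and 7.49 in undifferentiated cells and 9.39, 8.93 and 9.60 after retinoic acid. The lowest retinoic acid sample was above the highest undifferentiated one, and the difference was 1.48 ± 0.24 (SE; limma, adjusted p = 0.00247). It was 1.31 without undifferentiated replicate 3 and 1.16 without replicate 3 of both groups. Bambi stood at 10.18, 10.40 and 10.72 against 9.85, 10.03 and 9.50, groups that did not overlap but lay near each other. Its difference of -0.64 ± 0.21 (SE; limma, adjusted p = 0.0482) lost its call in 16 of 23 alternatives (adjusted p from 0.0257 to 0.325), and leaving out a single sample kept it in 1 of 6 cases, that of retinoic acid replicate 2. A second probe of Bambi was at background on all 12 arrays and was not tested.

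The other BMP pathway genes of a list of 65 were more often higher than lower. Of the 56 tested, 24 rose, 4 fell and 28 were not called, with a median difference of 0.49, where 18.7% of all genes tested were called higher and 13.6% lower, with a median of 0.0035. The counts by role below stand against the same shares. With the genes above background on all 12 arrays alone, which leaves 36 of them, 14 rose and 4 fell, where of all 11981 such genes 2061 were called higher and 1737 lower. The list was drawn up with earlier results of these arrays known, so its counts are a description.

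Receptors and co-receptors rose in 4 of 8 tested cases and fell in 0. Bmpr2, the type II receptor dedicated to BMPs, rose by 1.55 ± 0.20 (SE; limma, adjusted p = 0.00078; 0.63 on a second probe), from 9.06 to 10.61. Acvr1, another type I receptor, rose by 0.81, and Bmpr1b by 0.65, a call lost in 6 of 23 alternatives. The largest rise was that of Rgma, a membrane-anchored BMP co-receptor also known as an axon guidance molecule, by 3.87 ± 0.16 (SE; limma, adjusted p = 9.1e-06). The type II receptors Acvr2a and Acvr2b, which bind activins and BMPs, differed by 0.34 and 0.67 and were not called. Whether they differ from the receptors that were called was not tested.

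Among Smads and their regulators 4 of 10 rose and 2 fell. The receptor-activated Smad1 rose by 0.92 and Smad5 by 1.36 (0.88 and 0.28 on its other probes, the last not called), while Smad9, of the same class, was near background and not called (-0.11). Smad4, the shared partner, rose by 0.90, a call lost with 75th percentile (0.50) and median (0.54) scaling. Ski, a corepressor of Smads, rose by 1.60 on its brightest probe, by 0.98 on a second and differed by 0.13 on a dimmer one. Smad7, the inhibitory Smad that also acts on the TGF-beta and activin branch, fell by 1.71 ± 0.23 (SE; limma, adjusted p = 0.000992), from 11.59 to 9.88, opposite to Smad6. Smurf1, a ubiquitin ligase of BMP Smads, fell by 0.85, with 0.04 on a second probe, not called.

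Of 8 other ligands tested 3 rose and 1 fell. Gdf3, a ligand abundant in pluripotent cells, fell by 3.30 ± 0.23 (SE; limma, adjusted p = 4.77e-05), from 11.11 to 7.81. Gdf6 rose by 1.05, but was above background on 1 of 6 undifferentiated arrays, so its size is approximate. Bmp8b was higher by 0.91 and Bmp6 by 0.50, calls that were lost in 6 of 23 and 13 of 22 alternatives.

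Extracellular inhibitors and modulators rose in 6 of 15 tested cases and fell in 0. Noggin and Chordin, the classical secreted BMP antagonists, were not called: Nog differed by 0.22, near background in undifferentiated cells, and Chrd by -0.09. Grem1 was at background on all 12 arrays, and Fst (0.44) missed the threshold with an adjusted p of 0.0661 in limma. Fstl1, a secreted follistatin-like glycoprotein, rose 4.43-fold. Bmp1, a protease that cleaves Chordin, rose 4.52-fold on its brightest probe, a log2 difference of 2.18. A second probe of Bmp1, brighter than the first in undifferentiated cells (6.78 against 6.26), differed by 0.19 and was not called. The others that rose were, as log2 differences, Crim1 (1.59), Twsg1 (1.38), Chrdl1 (1.28) and Sostdc1 (0.71). Crim1, a membrane protein that binds BMPs, differed by 0.39 on a second probe, not called. Twsg1 binds BMPs together with Chordin. Chrdl1 and Sostdc1 were above background on 1 of 6 undifferentiated arrays and Bmp1 on 3 of 6. Other probes of Chrdl1 differed by 0.103 and 0.0996, near background and not tested. Those of Twsg1 differed by 1.41 and, at background and not tested, by 0.10.

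Target genes known from various tissues gave 5 rises and 1 fall among 12. Gata3 (3.60), Gata2 (2.0) and Atoh8 (1.57) rose, as did Msx1 (3.07) on its brightest probe. A second probe of Msx1, brighter than the first in undifferentiated cells (8.20 against 7.38), was called lower by 0.53 (limma, adjusted p = 0.0483 over all probes). The probes therefore do not settle whether Msx1 rose. Dlx3, above background on 0 of 6 undifferentiated and all 6 retinoic acid arrays, was at least 3.83-fold higher. Tbx3, a pluripotency-associated T-box factor, fell by 1.82 (0.85 lower on a second probe, not called), and Msx2, Hey1, Hand1, Runx2, Dlx5 and Tfap2a were not called. Of the E proteins that Id proteins bind, Tcf12 rose by 1.87 and Tcf3 by 0.95 (0.41 on a second probe, not called), while Tcf4 (0.49; limma, adjusted p = 0.0506) missed the threshold on its brightest probe passed it on a second (0.66) and differed by -0.02 on another (adjusted p = 0.977 in limma). Other probes of Tcf12 rose by 1.62 and 1.46, while dimmer ones differed by 0.59, not called, and 0.14, not tested. Gata3 and Hand1 are also among the 7 trophoblast markers.

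**Figure D3:**
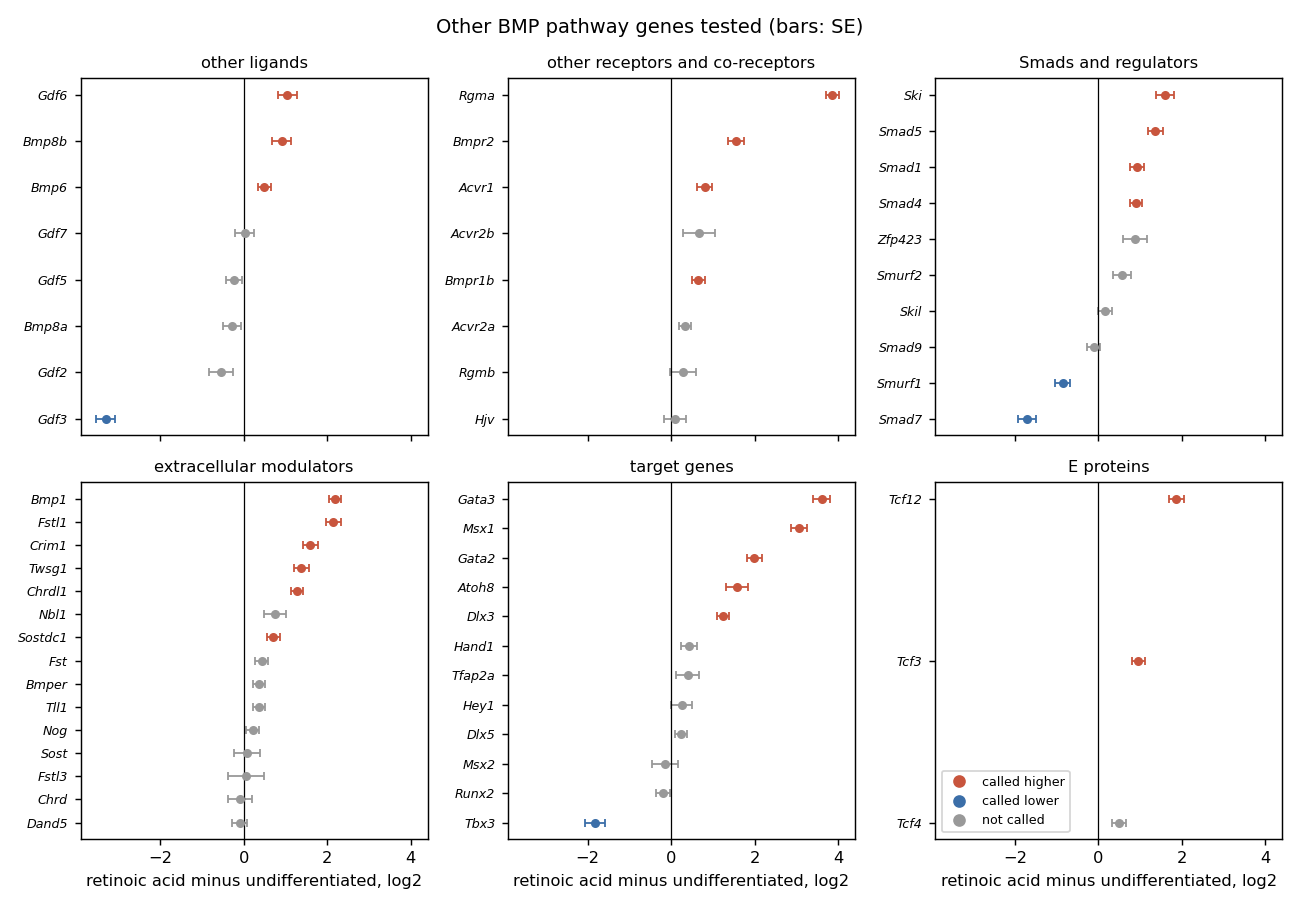
Difference between retinoic acid and undifferentiated cells (log2, x axis, bars are SE) of the 56 other BMP pathway genes tested, in 6 panels by role. Red genes were called higher, blue lower and grey not called at an adjusted p under 0.05 in limma. Receptors reach from 0.10 (Hjv) to 3.87 (Rgma), and the falls are those of Gdf3, Smad7, Smurf1 and Tbx3.

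The genes whose 6 sample values, centred on their mean, lay closest to those of Id2 were Cldn6, Grb10 and Prom1, at Euclidean distances of 0.70, 0.83 and 0.88 (log2) among all genes tested with regular symbols. Cldn6, a tight junction protein, differed by 2.68, Grb10, an imprinted adaptor of growth factor receptors, by 2.86 and Prom1, a membrane glycoprotein, by 3.02. In all 3 genes undifferentiated replicate 3 was the lowest sample, at 8.72, 8.97 and 7.04. As the genes were chosen for likeness to Id2, this and the similar differences follow largely from that choice.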

How the data were processed

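Each deposited array table holds linear Cy3 intensities per spot, net of local background per the file headers. How that background was removed is not stated in the headers or labels. R 2.15.0 and limma are named in the submitters' processing notes. The authors' deposited table of processed intensities for 41173 probes was used as another setting. Gene names came from the RefSeq table of GRCm38.p6, matched by accession or symbol, or were kept as in the files (1279 probes).

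Intensities were quantile-normalized, 50 was added and log2 taken. A probe counted as above background over the 95th percentile of 27 negative control spots of its array. Genes entered the test if this was so for 4 or more of the 6 arrays of either group. Technical arrays were averaged, and 3 samples per group were compared with limma 3.58.1 (lmFit, eBayes, two-sided, R 4.3.3). The fit was also run on simulated independent values with far fewer changed genes than were called here. That run therefore does not show how the fit performs on these arrays. A fold given as "at least" is the brighter group's mean over the higher of the gene's signal and the lowest signal above background, without the added 50.

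The members and lists were chosen with earlier results of these data known. Named were all members with every probe, called genes of the pathway lists, uncalled core pathway genes, and the 3 genes most like the most changed member; Acvr2a, Acvr2b, Hjv, Tcf4 and the uncalled targets were named after their values were seen. The number of arrays limits the precision.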

Additional observations from a re-analysis of the deposited data

How the results depend on the processing

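Of the 10 members, Id1, Id2, Id3, Id4 and Smad6 kept their direction and call in all 24 alternatives, and Bmpr1a in all but the second brightest probe (0.62). The count of members called higher was 5 in every alternative but the mean of a gene's probes (6, with Bmp7); with the second brightest probe Bmp7 was called higher in place of Bmpr1a. The count called lower went from 2 to 1, by the loss of Bambi, or, with the second brightest probe, because it was not tested: with no filter on dim genes, when every array had to be above background, with probes averaged, probe by probe, on technical array 1 alone, with arrays blocked by sample, with the replicate block, with 10 or 1 added, an adjusted p under 0.01, and, chosen after the data were seen, without replicate 3 of both groups; leaving out each sample in turn gave 1 to 2. Other pathway genes called higher fell from 24 to 14 with the filter on all 12 arrays, where 36 were tested. They numbered 19 with the second brightest probe, where 50 were tested. At an adjusted p under 0.01 there were 20, and without replicate 3 of both groups 18. The remaining alternatives gave 21 to 28. All genes called higher and lower numbered 1784 and 1114 at an adjusted p under 0.01, and 1621 and 1113 without replicate 3 of both groups. Leaving out each sample gave 2007 to 3148 higher and 1228 to 2108 lower, with 1326 and 1228 lower without retinoic acid replicates 1 and 3. With 75th percentile scaling 2450 genes were higher and 2648 lower, and with median scaling 2386 and 2239.

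Signs turned for Bmp7 with the mean of probes (0.86), the second brightest probe (1.74), technical array 1 (0.014), without undifferentiated replicate 3 (0.064; -0.11 to 0.064 over the single samples left out) and without replicate 3 of both groups (0.038), and with the second brightest probe for Smurf1 (0.039) and Msx1 (-0.53). Where no probe or sample choice shows it, the cause was not tested. Samples of the 2 groups share replicate numbers. Their deviations correlated at -0.06, 0.22 and 0.07 for numbers 1, 2 and 3, and they were not taken as pairs. Such values cannot exclude a pairing, and the arrays of replicate 3 stood apart in both groups by median net intensity. With the replicate block 5 members were higher and 1 lower, and 2849 and 2040 of all genes. Bmp4 then had an adjusted p of 0.0589 in limma and stayed uncalled.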
